A study of Mus musculus with 6 samples.

Results

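The heavy chain variable segments of the immunoglobulin heavy chain locus (Ighv) were followed in RNA of mouse splenic B cells. Members are the rows of the deposited table with gene names whose name starts with Ighv and whose mean over the 6 libraries is at least 1 FPKM (fragments per kilobase of gene length, scaled to the library total). This gave 100 members out of 114 Ighv rows, in a table of 35275 genes. Members were thus chosen by their measured mean level, which is given as a description. The members just inside that level were Ighv1-83 (mean 1.61 FPKM), Ighv11-1 (1.43 FPKM) and Ighv2-7 (1.25 FPKM). Just outside lay Ighv1-14 (0.769 FPKM), Ighv8-11 (0.741 FPKM) and Ighv6-5 (0.639 FPKM). Of the 14 rows left out, 6 stood at 0 in all libraries.

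Each B cell joins one V segment to a diversity and a joining segment and transcribes it with a constant region, so the segment names the V part of that cell's heavy chain. Resting B cells carry many different segments at modest transcript levels, while plasma cells, the antibody-secreting cells, hold far more heavy chain transcript per cell. In germinal centres, B cells that bind an antigen divide and their V regions are mutated by activation-induced deaminase.

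The study compared wild-type (WT) mice with mice carrying CD40LΔ5, an altered form of CD40 ligand. The labels do not describe the allele further. Mice of both genotypes were C57BL/6, were 6 to 8 weeks old and had been injected with sheep red blood cells, and pan-B cells of their spleens were taken 8 days later. There were 3 libraries per genotype and none from an uninjected mouse. The labels do not tell if libraries are from separate animals, so p-values measure the spread between these libraries, which may be technical.

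The library totals were 24320080 to 27866611 reads on genes. Cd79a, a B cell receptor component, was high throughout, at 1510 to 1999 FPKM, against Cd3e, a T cell gene, at 3.03 to 4.21 FPKM. Genes of other cell types were present too. The 5 listed erythroid markers summed to 297 to 1076 FPKM, highest in CD40LΔ5 replicate 3. The 6 listed macrophage and monocyte markers summed to 68.6 to 206 FPKM, highest in WT replicate 1. The part of these cells in the Ighv levels was not tested. The grouping of the libraries is not the same in every deposited source. In the authors' deposited table of means, the column MUT equals the mean of WT replicate 1, WT replicate 2 and CD40LΔ5 replicate 2, and the column WT equals the mean of the other 3. The match holds to within 3.33e-08 FPKM, and WT replicate 3 and CD40LΔ5 replicate 2 are the libraries placed alike by both sources. Libraries keep the names of their labels below. The labels give the first comparison, the sets of that table the second, and 3 values in a row follow the order of replicates 1, 2 and 3.

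The germline sequences of 6 members are shown, chosen after their values were seen. Ighv1-81, Ighv1-9, Ighv9-3 and Ighv1-64 had the highest mean levels. Ighv1-26 led in WT replicate 1 and CD40LΔ5 replicate 2. Ighv6-3 varied less in level than the median member, from 116 to 244 FPKM. Each line is the last 294 bases of the exon that encodes the V region, in transcript sense, and capitals mark AGCT, a motif at which activation-induced deaminase is known to act often.
Ighv1-81: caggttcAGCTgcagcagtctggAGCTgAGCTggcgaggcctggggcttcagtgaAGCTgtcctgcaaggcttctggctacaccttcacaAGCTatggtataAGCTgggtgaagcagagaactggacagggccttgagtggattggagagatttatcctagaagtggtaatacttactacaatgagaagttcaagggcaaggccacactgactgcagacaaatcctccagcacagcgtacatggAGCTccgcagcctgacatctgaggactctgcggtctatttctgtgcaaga
Ighv1-9: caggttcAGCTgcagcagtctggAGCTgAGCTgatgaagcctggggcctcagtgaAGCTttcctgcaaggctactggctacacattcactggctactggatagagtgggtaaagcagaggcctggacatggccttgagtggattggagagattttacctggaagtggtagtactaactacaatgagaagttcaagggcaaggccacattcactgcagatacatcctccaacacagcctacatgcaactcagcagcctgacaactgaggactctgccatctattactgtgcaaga
Ighv9-3: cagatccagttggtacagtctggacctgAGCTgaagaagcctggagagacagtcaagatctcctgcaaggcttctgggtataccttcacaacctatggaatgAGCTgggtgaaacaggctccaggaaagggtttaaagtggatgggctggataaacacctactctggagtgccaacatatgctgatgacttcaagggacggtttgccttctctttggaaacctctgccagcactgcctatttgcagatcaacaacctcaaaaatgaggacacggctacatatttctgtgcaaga
Ighv1-64: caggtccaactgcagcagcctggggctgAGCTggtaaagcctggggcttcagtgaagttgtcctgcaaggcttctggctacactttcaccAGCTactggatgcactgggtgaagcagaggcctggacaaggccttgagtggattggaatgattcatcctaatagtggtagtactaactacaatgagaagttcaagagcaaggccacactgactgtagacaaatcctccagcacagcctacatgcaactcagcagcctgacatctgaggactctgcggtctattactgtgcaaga
Ighv1-26: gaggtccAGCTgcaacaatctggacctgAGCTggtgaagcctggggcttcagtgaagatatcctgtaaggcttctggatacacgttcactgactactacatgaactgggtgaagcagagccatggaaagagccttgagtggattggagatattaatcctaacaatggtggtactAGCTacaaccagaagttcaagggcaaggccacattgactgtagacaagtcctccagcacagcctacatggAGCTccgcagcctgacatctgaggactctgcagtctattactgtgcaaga
Ighv6-3: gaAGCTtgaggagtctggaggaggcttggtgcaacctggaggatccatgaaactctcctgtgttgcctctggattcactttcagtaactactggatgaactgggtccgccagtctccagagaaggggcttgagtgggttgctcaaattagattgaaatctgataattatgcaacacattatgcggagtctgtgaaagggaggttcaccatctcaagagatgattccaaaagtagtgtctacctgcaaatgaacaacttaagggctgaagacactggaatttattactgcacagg

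These sequences come from the GENCODE M21 transcripts of GRCm38, and all 6 lie on the minus strand of chromosome 12. Ighv1-81 is at chr12:115920279-115920572, Ighv1-9 at chr12:114583569-114583862 and Ighv9-3 at chr12:114140692-114140985. Ighv1-64 is at chr12:115507545-115507838, Ighv1-26 at chr12:114788372-114788665 and Ighv6-3 at chr12:114391712-114392005. The 4 segments of the Ighv1 subfamily shown were 83.3% (Ighv1-9 and Ighv1-26) to 89.1% (Ighv1-81 and Ighv1-64) identical to each other. Ighv9-3 was 67.7% to 68.4% identical to these, and Ighv6-3 57.8% to 60.5%. AGCT, which reads the same on both strands, occurred 7 times in Ighv1-81, 4 times in both Ighv1-9 and Ighv1-26, 2 times in both Ighv9-3 and Ighv1-64 and 1 time in Ighv6-3. It was present in 91 of the 93 members with a matched sequence (97.8%) and in 95.2% of all 168 annotated Ighv segments with a stretch of that length. Over the members the count had a median of 3 and reached 7. Between subfamilies the median count was 4 for Ighv1 (46 members), 4 for Ighv14 (4 members), 3 for Ighv2 (9 members) and 1 for Ighv5 (9 members).

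Summed over the 100 members, Ighv transcripts differed by more between libraries of 1 genotype than between genotypes. The sum was 8030, 20982 and 32996 FPKM in the WT libraries. It was 13829, 5870 and 30939 FPKM in the CD40LΔ5 libraries. WT replicate 1 and CD40LΔ5 replicate 2 were the lowest of their label, and the groups overlapped. The means were 20669 ± 12486 FPKM (SD, n = 3) under the WT label and 16879 ± 12810 FPKM under the CD40LΔ5 label. By the deposited table of means, the mean of the MUT set was 11627 ± 8173 FPKM (SD, n = 3) and that of the WT set 25921 ± 10523 FPKM, with overlap between the sets. These sums correspond to 0.200% to 1.13% of the reads of a library, or 49705 to 310661 reads. In bulk RNA, fewer cells with a segment and less RNA of it per cell cannot be told apart.

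The summed level of the heavy chain constant genes moved beside that of the variable segments, but not every constant gene did. The sum covers 7 listed genes: Ighm, Ighg1, Ighg2b, Ighg2c, Ighg3, Ighe and Igha. Ighd, the constant region of IgD, is not in it. The sum stood at 9106, 23860 and 35720 FPKM in the WT libraries and at 14612, 6964 and 32371 FPKM in the CD40LΔ5 libraries. The ratio of the variable sum to this constant sum therefore stayed between 0.843 and 0.956. By the table of means it did not overlap, at 0.843 to 0.882 in the MUT set and 0.924 to 0.956 in the WT set. Ighm, the constant region of IgM, did not follow the Ighv sum. It had 7148, 5342 and 5246 FPKM in the WT libraries and 5149, 5735 and 6285 FPKM in the CD40LΔ5 libraries. Igha, the constant region of IgA, did not follow it either, with 733, 314 and 451 FPKM in WT and 261, 265 and 749 FPKM in CD40LΔ5. Ighg1, the constant region of IgG1, had 149, 11131 and 26754 FPKM in the WT libraries, and 4054, 111 and 21225 FPKM under the other label. The libraries thus had the same order by Ighg1 as by summed Ighv level. Segments of the light chains (99 Igkv and Iglv rows of at least 1 FPKM) summed to 11332 to 46873 FPKM, with the lowest sum in CD40LΔ5 replicate 2 and the next lowest in WT replicate 1. The ratio of this light chain sum to the Ighv sum was 1.76 to 1.93 in the MUT set and 1.33 to 1.52 in the WT set.

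**Figure D1:**
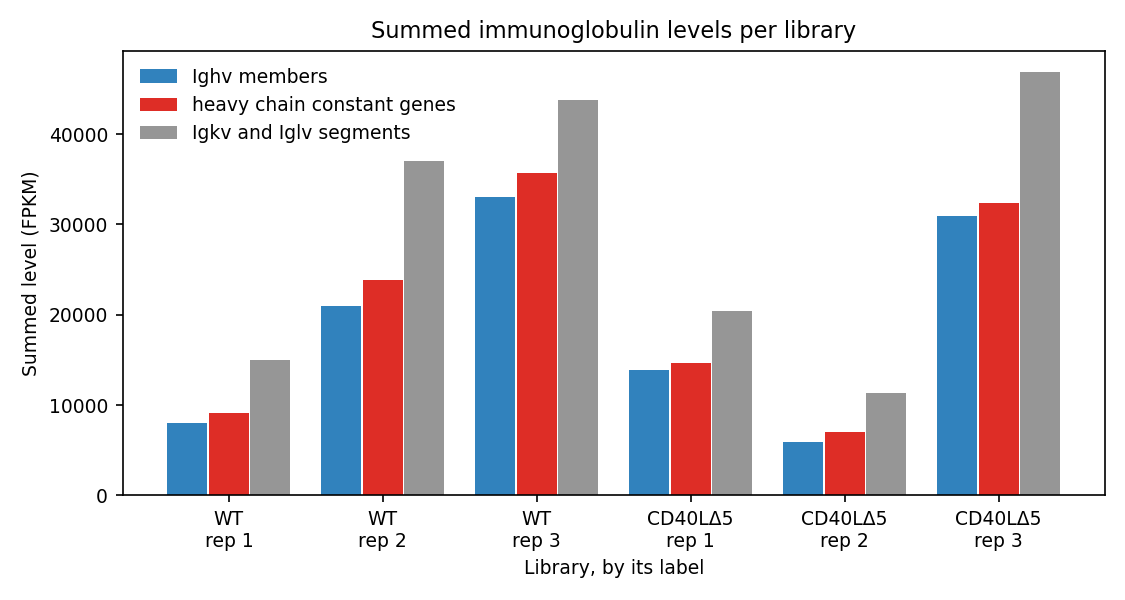
Summed FPKM per library (bars, in FPKM) of the 100 Ighv members, of 7 heavy chain constant genes and of 99 Igkv and Iglv segments, for the 6 libraries named by their labels. WT replicate 1 and CD40LΔ5 replicate 2 have the lowest sums of each label in all 3 sets, and the Ighv sum runs from 5870 to 32996 FPKM.

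CD40LΔ5 replicate 2, WT replicate 1 and CD40LΔ5 replicate 1 were lowest, in this order, both in summed plasma cell markers and in the Ighv sum. The order of the others differed, with the highest marker sum in WT replicate 2 and the highest Ighv sum in WT replicate 3. All 7 listed genes of that marker list were detected in every library, and their sum was 1328, 4993 and 4746 FPKM in the WT libraries. It was 2061, 1108 and 4829 FPKM in the CD40LΔ5 libraries, with Igj, the joining chain of secreted antibody, at 653 to 3627 FPKM. The 6 germinal centre markers summed to 30.7, 108 and 128 FPKM in the first label and to 136, 44.4 and 71.9 FPKM in the second, and none was at 0. Neutrophil genes were high in WT replicate 3 and CD40LΔ5 replicate 3, which had the largest Ighv sums. Their 5 markers summed to 58.4, 57.8 and 246 FPKM in WT and to 34.5, 64.1 and 439 FPKM in CD40LΔ5, with none at 0. The part of these cell types in the Ighv levels was not tested. Genes of V(D)J recombination were near the detection limit, with Rag1 at 0.306 to 0.774 FPKM, Rag2 at 0.0105 to 0.0706 FPKM and Vpreb2 listed at 0 in all libraries.

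Usage share, the FPKM of a segment divided by the summed FPKM of all members in that library, showed which segments made up these sums. Ighv1-81 (ENSMUSG00000094689) had the highest mean, with 221, 1511 and 2512 FPKM in the WT libraries and 1084, 156 and 1736 FPKM in the CD40LΔ5 libraries. Its usage share was 2.75%, 7.20% and 7.61% in WT and 7.84%, 2.66% and 5.61% in CD40LΔ5. Its share was thus low in WT replicate 1 and CD40LΔ5 replicate 2 and higher in the other 4 libraries. Ighv1-9 (ENSMUSG00000094694) followed the same order of libraries in outline, with 1.98%, 7.08% and 6.84% in WT and 5.12%, 2.37% and 7.48% in CD40LΔ5. Ighv9-3 (ENSMUSG00000096459) made up 3.37%, 5.50% and 6.89% in WT and 5.28%, 3.41% and 5.73% in CD40LΔ5. For both segments, too, WT replicate 1 and CD40LΔ5 replicate 2 had the lowest shares.

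Other abundant segments had patterns of their own. Ighv1-64 (ENSMUSG00000094088) reached 5.57% and 7.02% in CD40LΔ5 replicates 1 and 3 and stood at 2.29% to 2.998% in the other 4 libraries. Ighv2-5 had shares of 0.496%, 3.04% and 2.02% in WT and 3.43%, 0.518% and 2.41% in CD40LΔ5, and its level ran from 30.4 to 744 FPKM. Its lowest share was in WT replicate 1 and the next lowest in CD40LΔ5 replicate 2. Ighv8-8 had 1.34%, 4.18% and 3.32% in WT and 3.81%, 1.57% and 2.28% in CD40LΔ5. Ighv3-6 varied less, from 2.52% to 3.94%, and so did Ighv1-55, from 1.87% to 3.06%. Ighv1-42 lay between 1.49% and 4.11% and Ighv1-80 between 1.17% and 3.99%. None of these shares separated the labels.

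Ighv1-26 (ENSMUSG00000094546) was the most used segment in WT replicate 1 and in CD40LΔ5 replicate 2, at 4.82% and 4.93%. In the other libraries it made up 2.91% and 3.55% (WT replicates 2 and 3) and 3.10% and 2.28% (CD40LΔ5 replicates 1 and 3). Its level was nevertheless lowest in CD40LΔ5 replicate 2 (289 FPKM) and next lowest in WT replicate 1 (387 FPKM), against 1171 FPKM in WT replicate 3. Ighv1-82 was among the first 3 in WT replicate 1 (3.87%) and in CD40LΔ5 replicate 2 (3.28%), and it reached 3.25% in CD40LΔ5 replicate 3. Its lowest share was 0.981%, in WT replicate 2. Ighv1-53 was among the first 3 in WT replicate 1, at 3.40%, and was lowest in WT replicate 3, at 1.55%.

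**Figure D2:**
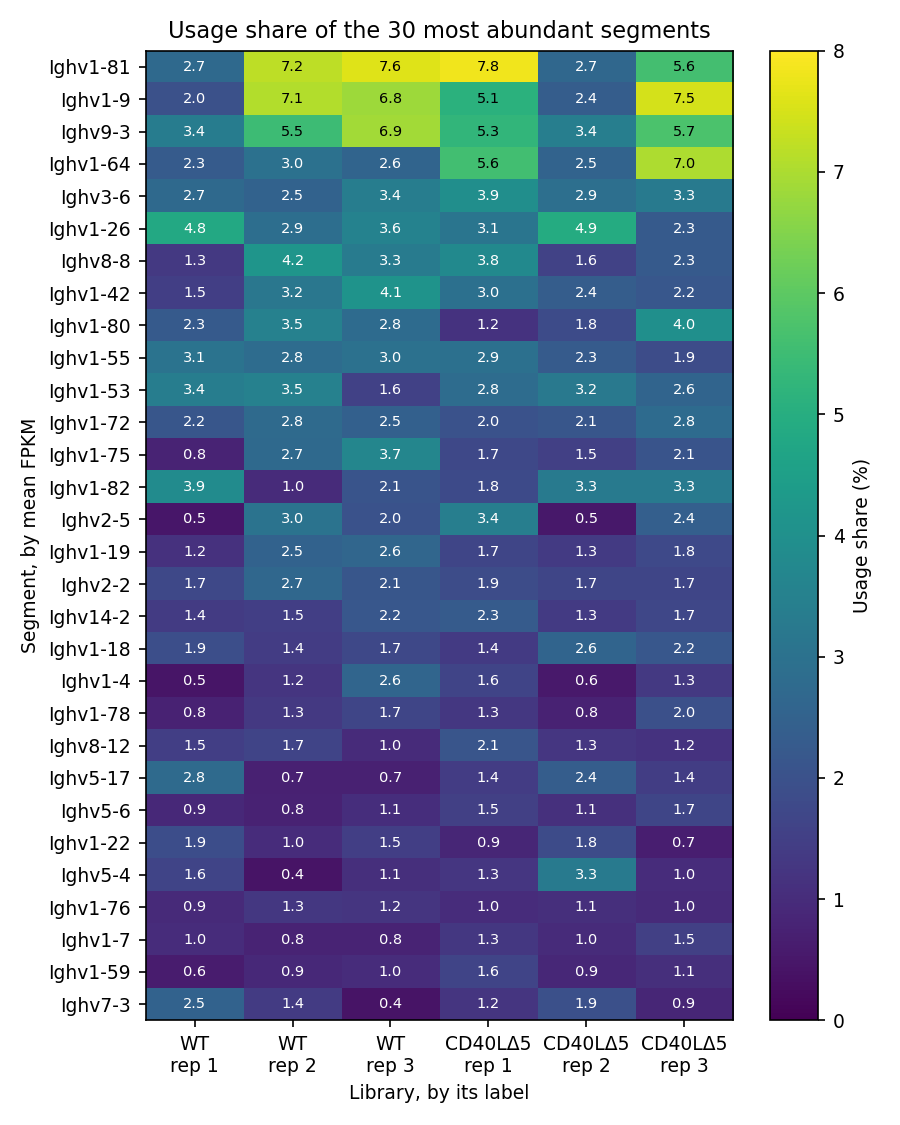
Usage share (percent of the summed Ighv FPKM of a library, colour and printed value) of the 30 segments with the highest mean FPKM (vertical axis) in the 6 libraries (horizontal axis). Ighv1-81 reaches 7.84% in CD40LΔ5 replicate 1, while Ighv1-26 is the most used segment in WT replicate 1 and CD40LΔ5 replicate 2.

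Dominance followed the same libraries. The effective number of segments, which is the number of equally used segments that would give the same summed squared share, was 49.9, 34.0 and 32.3 in the WT libraries. It was 35.0, 51.7 and 33.3 in the CD40LΔ5 libraries. The means were 38.7 ± 9.70 for WT and 40.0 ± 10.2 for CD40LΔ5 (SD, n = 3). By the deposited table of means the libraries averaged as MUT had 45.2 ± 9.72 and those averaged as WT 33.5 ± 1.37 (SD, n = 3). The sets still overlapped, since WT replicate 2 (34.0, averaged as MUT) lay below CD40LΔ5 replicate 1 (35.0, averaged as WT). The share of the most used segment did not overlap, at 4.82% to 7.20% in the MUT set and 7.48% to 7.84% in the WT set. The 5 most used segments of a library held 18.5%, 27.5% and 29.1% in WT and 27.7%, 18.1% and 29.8% in CD40LΔ5. It took 19 segments to reach 50% of the usage in both WT replicate 1 and CD40LΔ5 replicate 2, and 12 or 13 in the other libraries.

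**Figure D3:**
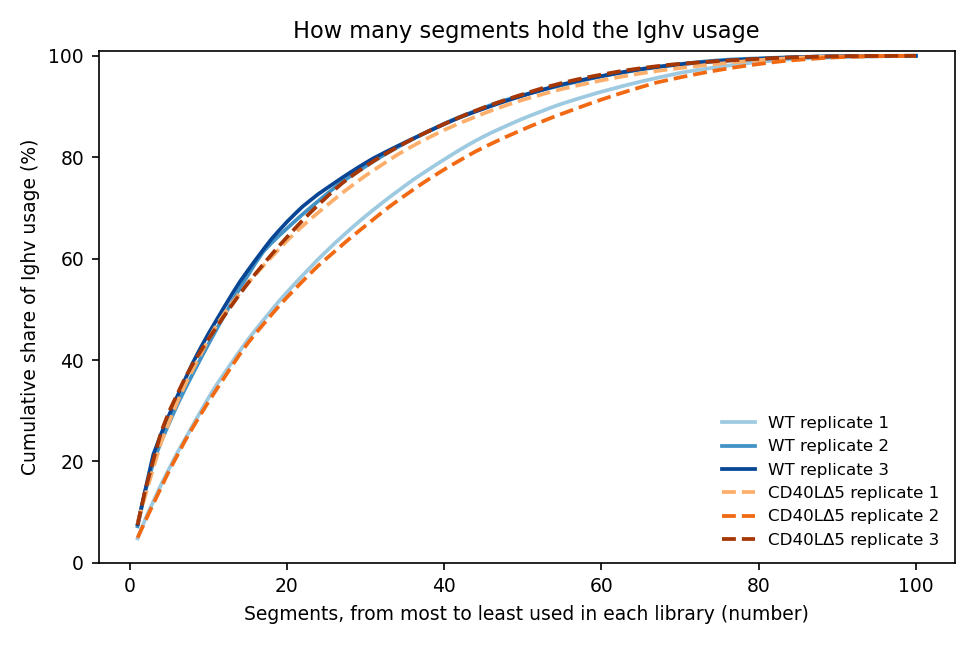
Cumulative share of Ighv usage (percent) against the number of segments, ordered from most to least used within each library; solid lines are WT and dashed lines CD40LΔ5. The curves of WT replicate 1 and CD40LΔ5 replicate 2 lie below the others, and reach 50% with 19 segments.

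Pairs of libraries were compared by the usage they share, which is the sum over members of the smaller of both shares. WT replicate 1 and CD40LΔ5 replicate 2, which carry different labels, shared 89.5%, the largest value of the 15 pairs (Spearman's rho of the shares 0.94 over 100 members). The 6 pairs among WT replicates 2 and 3 and CD40LΔ5 replicates 1 and 3 shared 80.0% to 84.2%. The 8 pairs of one library from each of these sets shared 67.3% to 71.7%. All pairs are drawn from the same members and libraries, so these values describe likeness and carry no test.

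The members varied in level far more than most genes did. The coefficient of variation of FPKM over the 6 libraries had a median of 64.9% over the 100 members, against 11.4% over all 11252 genes that passed the same level. For light chain variable segments the median was 55.0%. An FPKM in 1 library of at least 3 times the median of the other 5 occurred for 42 of 100 members, where 2.13% of all genes tested did so. Of the 42, CD40LΔ5 replicate 3 held 20, WT replicate 3 held 19 and WT replicate 2 held 3. Measured on usage share instead, 34 members were raised in this way, of which CD40LΔ5 replicate 2 held 17, WT replicate 1 held 9 and WT replicate 3 none. The libraries with most raised levels were therefore not those with most raised shares. Shares were defined for the members only, so their count has no counterpart over all genes. A share also depends on the Ighv sum it is divided by, which was smallest in CD40LΔ5 replicate 2 (5870 FPKM) and WT replicate 1 (8030 FPKM).

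The 3 members with the largest ratio of highest to lowest level, singled out after their values were seen, were Ighv2-4, Ighv1-31 and Ighv1-56. Ighv1-56 stood at 2.66, 26.1 and 3.45 FPKM in the WT libraries and at 3.004, 6.44 and 117 FPKM in the CD40LΔ5 libraries. Its share in CD40LΔ5 replicate 3, 0.377%, was 11.4 times the median of the other 5 libraries. Ighv2-4 stood at 12.1, 5.99 and 53.9 FPKM in WT and at 11.6, 3.80 and 203 FPKM in CD40LΔ5, which is a range of 53.4 times. Ighv1-31 was highest in WT replicate 3, at 312 FPKM, against 6.79 FPKM in WT replicate 1. Ighv2-4 and Ighv1-56 were thus highest in CD40LΔ5 replicate 3 and Ighv1-31 in WT replicate 3, and the labels overlapped for all 3.

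Among segments with a mean share of at least 0.5%, those with the highest ratio of the highest share to the median of the other 5 libraries were Ighv5-9-1, Ighv6-3, Ighv1-54, Ighv5-9, Ighv4-1, Ighv1-15, Ighv10-1 and Ighv10-3. Ighv5-9-1 made up 2.71% in WT replicate 1 and 0.439% to 1.24% elsewhere, a ratio of 3.86. Ighv5-9 made up 2.25% in WT replicate 1 and 0.462% to 1.03% elsewhere. These 2 were high in WT replicate 1 but not in CD40LΔ5 replicate 2. Ighv6-3 made up 3.04% in WT replicate 1 and 2.93% in CD40LΔ5 replicate 2, and 0.573% to 0.951% in the other 4. Ighv4-1, Ighv1-15, Ighv10-1 and Ighv10-3 also had their higher shares in those 2 libraries. Ighv1-54 was highest in CD40LΔ5 replicate 1, at 1.02%.

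Some of these segments changed in share while their own level moved less than that of the median member. The ratio of highest to lowest level had a median of 5.30 over the members and 1.35 over all genes tested. Ighv10-1 stood at 149, 122 and 139 FPKM in the WT libraries and at 138, 106 and 142 FPKM in the CD40LΔ5 libraries. That range of 1.41 times was accompanied by shares from 0.420% to 1.86%. Ighv5-2, the member nearest to Ighm, stood at 11.8, 12.3 and 16.6 FPKM in WT and at 13.7, 11.8 and 14.05 FPKM in CD40LΔ5. Ighv1-15 ranged from 62.8 to 99.8 FPKM (1.59 times) and Ighv6-3 from 116 to 244 FPKM (2.10 times). Over the same libraries Ighv1-81 ranged 16.1 times and Ighv1-9 16.6 times from lowest to highest level. The coefficient of variation was thus 12.1% for Ighv10-1 and 75.9% for Ighv1-81.

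The subfamilies, given by the first number of the name, had unequal sizes and unequal usage. Ighv1, the largest with 50 of the members, held 50.4%, 61.5% and 63.6% of the usage in the WT libraries. It held 59.5%, 53.8% and 62.8% in the CD40LΔ5 libraries. The means were 58.5 ± 7.11% for WT and 58.7 ± 4.55% for CD40LΔ5 (SD, n = 3), and 55.3 ± 5.70% and 62.0 ± 2.21% in the sets averaged as MUT and WT. The groups overlapped in both comparisons.

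Next in mean share came Ighv5 (7.88%, 9 members, led by Ighv5-17), Ighv2 (7.62%, 9 members, led by Ighv2-5) and Ighv9 (6.15%, 4 members, led by Ighv9-3). Ighv5 held 12.7%, 4.09% and 5.73% in WT and 6.58%, 10.7% and 7.44% in CD40LΔ5. Its share was highest in WT replicate 1 and in CD40LΔ5 replicate 2. Ighv9 held 4.97%, 6.65% and 7.60% in WT and 6.17%, 4.82% and 6.70% in CD40LΔ5, so its shares were lowest in these libraries. Per member, Ighv9 had the highest mean share (1.54%), followed by Ighv1 (1.17%). The lowest were Ighv15 (0.0699%) and Ighv11 (0.113%). The value of Ighv9 rests on Ighv9-3 (mean share 5.03%), since Ighv9-1, Ighv9-4 and Ighv9-2 had 0.610%, 0.353% and 0.162%.

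Small subfamilies were among those that varied most in share. Ighv6 (3 members, led by Ighv6-3) held 4.77%, 1.57% and 1.30% in WT and 1.44%, 4.55% and 1.25% in CD40LΔ5. Ighv7 (3 members, led by Ighv7-3) ranged from 0.538% to 3.29%. By the table of means, the shares of Ighv6 and Ighv7 did not overlap between the sets, and those of the other subfamilies did. Ighv6 held 1.57% to 4.77% in the MUT set and 1.25% to 1.44% in the WT set. Ighv7 held 1.58% to 3.29% in the MUT set and 0.538% to 1.42% in the WT set. RefSeq lists Ighv7-3 as a pseudogene, while GENCODE does not. Ighv10 (2 members, led by Ighv10-1) ranged from 0.875% to 3.28% and Ighv4 (Ighv4-1 alone) from 0.307% to 1.12%. All 4 had their highest shares in WT replicate 1 and CD40LΔ5 replicate 2, as had Ighv11, Ighv12 and Ighv15. Ighv13 varied more than these 4 and in another order, from 0.0717% in WT replicate 3 to 0.590% in WT replicate 2. It held 0.354% in WT replicate 1 and 0.576% in CD40LΔ5 replicate 2. Ighv3 (led by Ighv3-6), Ighv8 (led by Ighv8-8) and Ighv14 (led by Ighv14-2) had mean shares of 4.203%, 4.40% and 3.68%. Their ranges were 2.99% to 4.87%, 3.19% to 6.13% and 2.79% to 4.10%. Ighv13 and Ighv15, with 1 member each (Ighv13-2 and Ighv15-2), had mean shares of 0.366% and 0.0699%, and Ighv16 had no member.

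**Figure D4:**
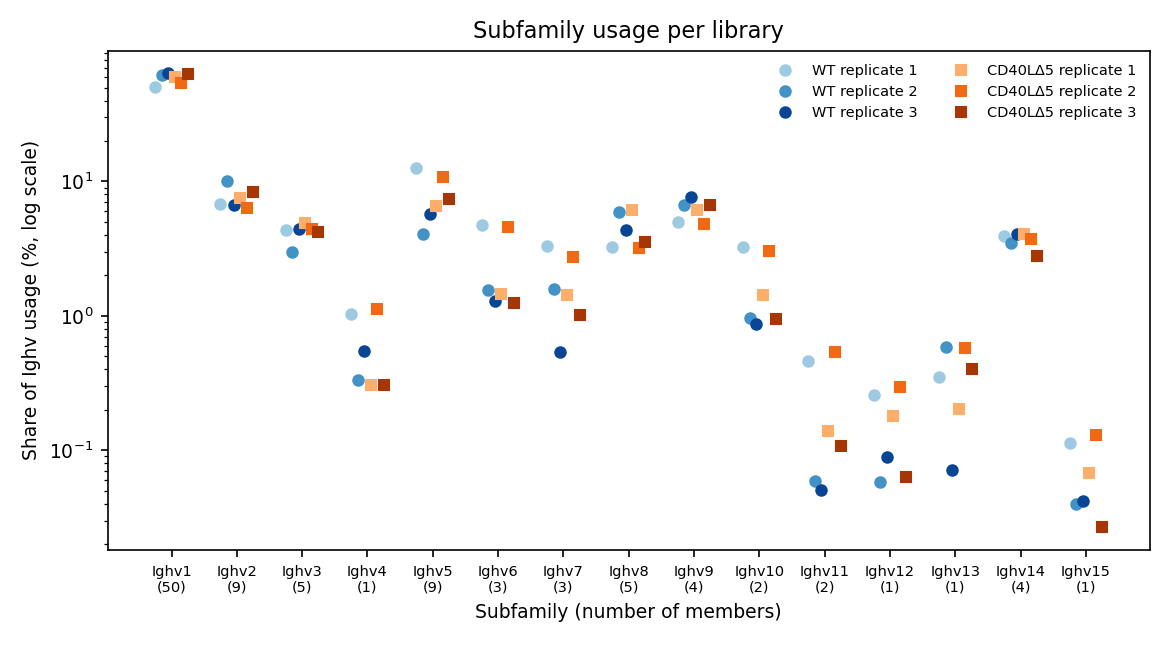
Share of Ighv usage (percent, log axis) of each of 15 subfamilies, with the number of members in parentheses; circles are WT and squares CD40LΔ5 libraries. Ighv1 holds 50.4% to 63.6%, and Ighv6, Ighv7 and Ighv10 have their highest shares in WT replicate 1 and CD40LΔ5 replicate 2.

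Segments with a well-known specificity showed their own levels. Ighv11-2 and Ighv12-3 are used by B1 cells that bind phosphatidylcholine. Ighv11-2 stood at 36.8, 10.9 and 14.8 FPKM in WT and at 16.1, 31.1 and 32.2 FPKM in CD40LΔ5, and Ighv12-3 lay between 12.3 and 29.5 FPKM. Their shares were highest in WT replicate 1 (0.459% and 0.259%) and CD40LΔ5 replicate 2 (0.531% and 0.298%). Ighv11-1, a near copy of Ighv11-2, reached 3.13 FPKM and rested on 3 to 30 reads per library. Ighv7-1, known from antibodies to phosphorylcholine, stood at 53.6, 34.3 and 34.7 FPKM in WT and at 19.7, 39.7 and 35.2 FPKM in CD40LΔ5. Ighv1-72, which dominates the C57BL/6 response to the hapten NP, kept a share of 2.001% to 2.78% while its level ran from 126 to 861 FPKM. The labels overlapped for each of these segments.

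The segments lie on chromosome 12 between 113574242 and 116000461 in the deposited coordinates, upstream of Ighm, whose row ends at 113422730. Members were ordered by distance from Ighm and put into 4 bins of 25. The nearest bin (156 to 626 kb from Ighm) held 24.0%, 16.5% and 15.7% of the usage in the WT libraries and 17.4%, 21.9% and 18.9% in the CD40LΔ5 libraries. The farthest bin (1820 to 2578 kb), which holds Ighv1-81 and Ighv1-64, held 23.8%, 36.3% and 33.9% in WT and 34.7%, 25.1% and 36.7% in CD40LΔ5. Its share was thus lower in WT replicate 1 and CD40LΔ5 replicate 2 than in the other libraries. The sum of the second bin hardly varied, at 25.6% to 27.2%, and that of the bin after it lay between 18.8% and 26.9%. Single segments of the second bin did vary. Ighv1-9 ran from 1.98% to 7.48%, with its lowest share in WT replicate 1. Ighv6-3 ran from 0.573% to 3.04%, with its highest share there.

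**Figure D5:**
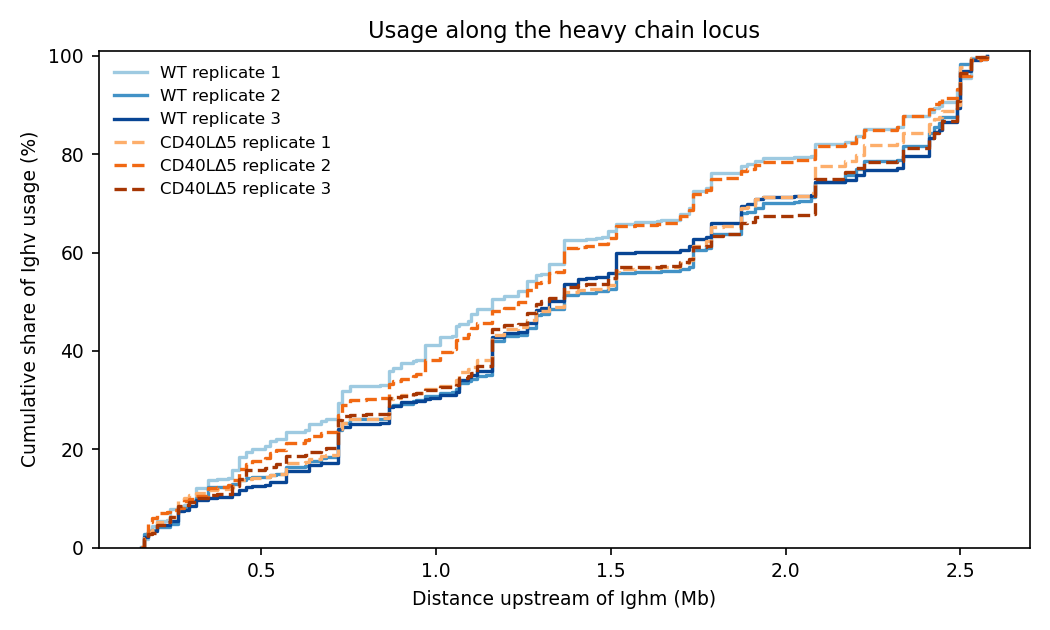
Cumulative share of Ighv usage (percent) against the distance of the segment upstream of Ighm (Mb); solid lines are WT and dashed lines CD40LΔ5, and each step is 1 member. The farthest 25 members hold 23.8% and 25.1% in WT replicate 1 and CD40LΔ5 replicate 2, and 33.9% to 36.7% in the other 4 libraries.

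Many members resemble another segment closely, which limits how reads can be assigned to them. Of the 93 members with a matched sequence, 50 had another annotated Ighv segment at least 95% identical over 294 bases, and 10 had one at least 98% identical. Ighv1-62-2 and Ighv1-71 were identical over that stretch, so their levels (means 37.4 and 62.2 FPKM) are uncertain. Ighv1-72 and Ighv1-62-3 were 99.3% identical, and Ighv11-2 and Ighv11-1 98.6%. The nearest segment lay in the same subfamily for 91 of the 93.

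By the labels, no member passed the test between CD40LΔ5 and WT. With limma on log2(FPKM + 1) and Benjamini-Hochberg adjustment at 0.05, 0 of 100 members were called, where the share of all 11252 genes called was 0%. The lowest adjusted p among the members was 0.999993. The median SE of the log2 difference was 0.60 over the members and 0.12 over all genes, so a difference of a given size was harder to call among members. Without adjustment, p was under 0.05 for 0 members with higher values (0.915% of all genes) and for 1 with lower values, Ighv6-4 (0.32% of all genes). limma voom on recovered reads gave 0 calls and 0 members at that unadjusted level. The count of members with lower values was 9 without WT replicate 1 (0.533% of all genes), 13 without CD40LΔ5 replicate 3 (0.818%), 4 without WT replicate 2 (0.267%) and 0 without WT replicate 3 (0.835%). Of the members 73 had a negative log2 difference, against 44.5% of all genes. The median log2 difference was -0.31 over the members and 0.01 over all genes. The direction rested on single libraries, since without WT replicate 3 the median over the members became 0.02, and without CD40LΔ5 replicate 2 it became 0.15.

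Among members with lower values in CD40LΔ5, Ighv6-4 stood at 0.842 ± 0.580 FPKM against 3.17 ± 2.20 FPKM in WT (SD, n = 3; log2 difference -1.08 ± 0.43 SE). It rests on 3 to 45 reads per library. Ighv5-9-1 stood at 217, 133 and 411 FPKM in the WT libraries and at 60.8, 41.2 and 217 FPKM in the CD40LΔ5 libraries (log2 difference -1.47 ± 0.66 SE). The groups overlapped. Ighv9-4 stood at 55.5, 55.5 and 54.7 FPKM in WT and at 32.9, 33.6 and 57.1 FPKM in CD40LΔ5. Here 2 of the 3 CD40LΔ5 libraries lay below all WT libraries and 1 above them. Ighv1-36 had 36.6 ± 16.3 FPKM in WT and 18.97 ± 7.21 FPKM in CD40LΔ5 (SD, n = 3), and Ighv2-7 1.70 ± 0.776 against 0.799 ± 0.305 FPKM.

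On the side of higher values the smallest p belonged to Ighv1-23, Ighv1-2, Ighv3-3, Ighv1-83 and Ighv11-2. Ighv1-23 had 4.10 ± 3.97 FPKM in CD40LΔ5 and 1.48 ± 0.142 FPKM in WT (SD, n = 3), a log2 difference of 0.77 ± 0.47 (SE), and its mean rests on 8.68 FPKM in CD40LΔ5 replicate 3. Ighv1-2 had 26.6 ± 5.69 against 20.8 ± 8.03 FPKM, with a listed length of 123 bases. Ighv3-3 and Ighv1-83 stayed under 7 FPKM in all libraries. Ighv1-23 was the one member whose CD40LΔ5 values all lay above the WT values (2.98% of all genes), and Ighv1-37 the one whose values all lay below (1.32% of all genes).

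When libraries were grouped as in the table of means, most members had lower values in the MUT set, without a call. limma called 0 of 100 members, against 0.0267% of all genes, and the lowest adjusted p among them was 0.343. Without adjustment, p was under 0.05 for 27 members with lower values (3.61% of all genes) and for 0 with higher values (9.39% of all genes). limma voom on recovered reads also called 0 members and had 27 at that unadjusted level. The count of members with lower values was 12 without WT replicate 3 (1.32% of all genes), 14 without CD40LΔ5 replicate 2 (1.72%) and 18 without CD40LΔ5 replicate 3 (3.81%). It was 42 without WT replicate 2 (5.82% of all genes) and 50 without CD40LΔ5 replicate 1 (3.31%). The values of 13 members did not overlap between the sets and were lower in MUT (4.79% of all genes), and none did so in the other direction (12.1%). The log2 difference was below 0 for 88 of the members and for 38% of all genes, with medians of -0.82 and 0.05. CD40LΔ5 replicate 2 and WT replicate 1, both in the MUT set, had the lowest Ighv sums (5870 and 8030 FPKM). Many members vary with the Ighv sum of a library, so counts of members in either comparison are not counts of separate observations.

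Other measures differed between these sets too. The 4 natural killer cell markers summed to 36.8, 31.5 and 37.7 FPKM in WT replicates 1 and 2 and CD40LΔ5 replicate 2, the MUT set, and to 13.7 to 20.05 FPKM in the WT set. The 7 T cell markers summed to 34.5 to 39.2 FPKM in the MUT set and to 27.3 to 34.4 FPKM in the WT set, and the 4 B1 cell markers to 10.7 to 12.5 and 12.7 to 14.1 FPKM. The sums of these 3 lists did not overlap between the sets, and none of their genes was at 0 in a library. The T cell sums nearly met, at 34.46 FPKM in CD40LΔ5 replicate 2 and 34.38 FPKM in CD40LΔ5 replicate 1. Each of the 4 B1 cell genes overlapped by itself. Of all genes tested, 12.1% were higher in the MUT set without overlap and 4.79% lower. The B cell, germinal centre, marginal zone, macrophage and monocyte, neutrophil and erythroid sums overlapped. The plasma cell list overlapped too, since WT replicate 2, of the MUT set, had its highest sum. Library totals were 24320080 to 25531391 reads in the MUT set and 27174790 to 27866611 reads in the WT set. The part of these cell types and of depth in the Ighv values was not tested.

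The smallest p in these sets belonged to Ighv1-43, which had 5.60 FPKM in WT replicate 1, 11.3 FPKM in WT replicate 2 and 1.37 FPKM in CD40LΔ5 replicate 2, the MUT set. It had 35.8 FPKM in WT replicate 3, 32.3 FPKM in CD40LΔ5 replicate 1 and 25.7 FPKM in CD40LΔ5 replicate 3, the WT set. The sets did not overlap (log2 difference -2.47 ± 0.54 SE; limma adjusted p = 0.343). Ighv2-6-8 measured 8.05 ± 1.13 against 29.2 ± 17.4 FPKM and Ighv5-6 99.8 ± 53.3 against 356 ± 153 FPKM (SD, n = 3). Ighv1-5 measured 55.3 ± 22.1 against 144 ± 45.4 FPKM and Ighv1-59 97.2 ± 81.4 against 297 ± 60.2 FPKM. These 5 have adjusted p values of 0.343 with limma.

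Members with higher values in the libraries averaged as MUT had smaller differences. Ighv7-1 had 42.5 ± 9.96 FPKM in the MUT set and 29.9 ± 8.83 FPKM in the WT set (SD, n = 3), a log2 difference of 0.52 ± 0.25 (SE), and Ighv8-4 2.58 ± 0.702 against 1.69 ± 0.609 FPKM. Ighv6-3, Ighv8-6 and Ighv11-2 had log2 differences of 0.23, 0.15 and 0.23. Leaving out single libraries changed the count of calls in 1 case. Without WT replicate 2, limma called 4 members lower in MUT, where 0.116% of all genes (13 of 11252) were called in either direction, namely Ighv2-5 (log2 difference -4.11 ± 0.22 SE, adjusted p = 0.0168), Ighv1-59 (-2.52, adjusted p = 0.0221), Ighv1-63 (-2.36, adjusted p = 0.0259) and Ighv1-12 (-2.33, adjusted p = 0.0415). The remaining MUT libraries of that fit were WT replicate 1 and CD40LΔ5 replicate 2. Without CD40LΔ5 replicate 1, 0 members were called, where 0.151% of all genes (17) were. The comparison by the labels and that by the table use the same 6 libraries.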

How the data were processed

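Libraries were made from total RNA with a TruSeq RNA kit, per the labels' protocols. Without giving roles, the submitters' processing notes list STAR, CASAVA 1.8.2, DESeq2 and mm9. How reads that match several segments were counted was not given in the sources used here. As the kit does not mark strand, antisense reads cannot be told apart. The authors deposited FPKM per gene and library, and means of FPKM in columns MUT and WT. With the deposited gene lengths, 100% of the values came out as whole reads (tolerance 0.01), which gave the library totals. The deposited coordinates of 111 of the 114 Ighv rows overlap the gene of the same identifier or symbol in GENCODE M21 (GRCm38), so they are read as GRCm38 and not mm9.

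Groups came from the labels; the second grouping was matched by a script to the table of means (to within 3.33e-08 FPKM). limma 3.58.1 in R 4.3.3 (eBayes with a trend, two-sided, Benjamini-Hochberg, threshold 0.05) was run on log2(FPKM + 1) over the 11252 genes whose mean reached 1 FPKM; that scale understates changes of low genes. The limma fit was also run on simulated data with independent noise for each gene, which does not measure its power for these members. Sums, shares and effective numbers are scores over chosen members and got no test. Identities came from edlib edit distances in Python 3.11.15. The members, lists and tests were chosen with earlier results of these data known. Named genes follow a rule: highest mean, highest share per library, highest share ratio, smallest p in each direction, leader of each subfamily, segments of known specificity and those at the threshold; others were chosen after their values were seen. Read counts have no molecular identifiers, so depth covers counting error only.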

Additional observations from a re-analysis of the deposited data

How the results depend on the processing

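The count of called members stayed at 0 by the labels under other pseudocounts, filters and scalings, without the variance trend, with limma voom and whichever library was left out (range 0 to 0). By the table of means it was 0 under the same alternatives, and 0 to 4 when 1 library was left out, with 4 without WT replicate 2 (13 of all 11252 genes). Signs were followed only for the log2 differences of the 5 members of smallest p in each direction of each comparison, not for the other named members. None of these changed sign under another setting with all libraries. With 1 library left out, 4 of these did: Ighv1-83 by the labels became -0.0083 without CD40LΔ5 replicate 3 (range -0.0083 to 0.55). By the table of means Ighv6-3 became -0.0496 (range -0.0496 to 0.45) and Ighv8-6 -0.0534 (range -0.0534 to 0.38), both without CD40LΔ5 replicate 1, and Ighv11-2 became -0.083 without WT replicate 1 (range -0.083 to 0.75). The cause was not tested.

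The log2 ratio of the mean summed Ighv level was -0.29 by the labels and ran from -1.07 to 0.22 when 1 library was left out; by the table it was -1.16, with -1.90 to -0.84. The difference in effective number was 1.25 by the labels (-4.59 to 6.83) and 11.7 by the table (8.43 to 17.3). For the share of subfamily Ighv1 it was 0.18 percentage points by the labels (-3.87 to 2.74) and -6.72 by the table (-9.86 to -4.30). Shares of reads, all Ighv rows, members of at least 10 FPKM and omission of 5 segments annotated as pseudogenes moved these by less than 1 SD between libraries. The sources differ on these segments. Ighv7-3 and Ighv7-1 are pseudogenes in RefSeq alone, Ighv13-2 in the deposited annotation alone and Ighv1-83 in GENCODE alone. Ighv1-2 is a pseudogene in both GENCODE and RefSeq.

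With the replicate number as a block, 0 members were called by the labels and 10 had an unadjusted p under 0.05 and lower values (0.444% of all genes), against 1 without the block. Deviations from the label means, compared between libraries of equal number, had Pearson's r of -0.38, 0.06 and 0.38 over 11252 genes. These values differ in sign and rest on the labels' groups, so they cannot tell if the numbers pair libraries. Members under 10 reads in a library, such as Ighv6-4, Ighv2-7 and Ighv11-1, allow no firm difference at this depth.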
